A study of Mus musculus with 12 samples.

Results

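The 4 Id genes (Id1, Id2, Id3 and Id4), the genes of 3 BMP receptors (Bmpr1a, Bmpr1b and Bmpr2) and the genes of 3 SMADs that those receptors activate (Smad1, Smad5 and Smad9) were followed across the cell types of the adult mouse dentate gyrus. The 10 genes were chosen by name, and all of them were found among the 50600 genes of the counts table. The cells came from Nestin-GFP mice of 6 to 9 weeks, in which the Nestin promoter drives the green fluorescent protein GFP, and no treatment is named for any group. Live cells without CD31, CD45, O1 and O4 (antigens of vessels, blood cells and oligodendrocyte lineage cells) were sorted as stem cells when they carried both GLAST and GFP, as progenitors when they carried GFP only, and as astrocytes when they carried GLAST only. RNA of 50 sorted cells went into each library by limiting-cell RNA-seq (lcRNA-seq, a preamplified protocol for very small inputs), and each of the 3 cell types had 4 libraries. The study describes these as biological replicates. The 4 stem cell columns were numbered 1 to 4 in the table, and the astrocyte and progenitor columns, which carried no number, are called a to d here.

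Bone morphogenetic proteins (BMPs) are secreted ligands that bring a type II receptor such as BMPR2 together with a type I receptor such as BMPR1A or BMPR1B. The type I receptor then phosphorylates SMAD1, SMAD5 or SMAD9, which enter the nucleus with SMAD4 and switch on target genes, of which the Id genes are the classic ones. ID proteins lack a DNA-binding domain and capture E proteins, the partners that neurogenic and gliogenic bHLH factors need. In the adult dentate gyrus BMP signaling is known for holding neural stem cells in quiescence.

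Id4 and Bmpr1b were the 2 of the 10 genes that passed the test in any comparison, and both were higher in stem cells than in progenitors, where 8.6% of all genes tested passed. Id4 was 3.04-fold and Bmpr1b 2.44-fold higher in stem cells. Id2 was the most abundant Id gene per length in all 12 libraries, and Bmpr1b the most abundant of the 3 receptors in every library except Astrocyte a. Id1 and Id3 were nearly absent from some libraries of a cell type and abundant in others of that same type. No member passed the edgeR test between astrocytes and progenitors (8.63% of all genes passed) or between astrocytes and stem cells (0.0468% passed).

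Library totals ran from 5357232 to 6253680 counts in astrocytes, from 9041498 to 12535028 in progenitors and from 5031166 to 10435711 in stem cells. Levels are given as CPM, the usual scaling of read counts to library size, with library sizes adjusted by the trimmed mean of M-values, and 3 counts in a library, taken as the floor of detection, were worth 0.206 to 0.639 CPM. The floor covers counting error only, since the study names no molecular identifiers. Astrocyte markers summed to 17265 to 23199 CPM in astrocytes, 26843 to 35318 CPM in stem cells and 8434 to 11068 CPM in progenitors, with 8 of 8 markers at 10 counts or more in every library. Summed radial glia-like markers ran from 1573 to 2417 CPM in stem cells and from 813 to 1110 CPM in progenitors. The astrocytes, at 1041 to 1727 CPM, overlapped both, so the sum did not set stem cells apart from astrocytes. Of the single markers, Hopx (493 to 598 CPM in stem cells, 153 to 411 CPM in astrocytes) did not overlap. Fabp7 (236 to 340 CPM in stem cells, 55.7 to 194 CPM in astrocytes) did not overlap either. The other markers of the list overlapped between these cell types. Nes itself was at 0 in the astrocytes and at most 0.521 CPM in stem cells. The progenitor libraries held neurogenic progenitor markers (737 to 1215 CPM, against 5.76 to 62.8 CPM in stem cells) and also oligodendrocyte precursor markers (2060 to 3452 CPM, against 71.0 to 145 CPM), 8 of 8 in each library. The library Astrocyte a stood apart, with 5373 CPM of neuron markers and 3205 CPM of oligodendrocyte markers.

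Among the receptors, Bmpr1b (ENSMUSG00000052430.15, minus strand of chromosome 3, 141837136 to 142169425 in GRCm38), which encodes a type I receptor, had the highest mean level per kb of exon in each cell type. In stem cells it measured 158 CPM in library 1, 132 in library 2, 175 in library 3 and 168 in library 4. In the progenitors a to d it measured 75.0, 86.7, 51.7 and 53.7 CPM. The lowest stem cell library therefore lay above the highest progenitor library. Means with their SD over 4 libraries were 158 ± 18.8 CPM (stem cells) and 66.8 ± 17.0 CPM (progenitors).

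For Bmpr1b, progenitors minus stem cells gave a log2 fold change of -1.29 (SE 0.23, edgeR quasi-likelihood adjusted p = 0.0087). It was called in 8 of 8 refits with a library left out, and in 6 of the 7 other settings that kept all libraries. The exception was a fit of all 12 libraries with a shared spread, where the adjusted p was 0.4. In these bulk samples, fewer cells of a type and less RNA per cell cannot be told apart. Astrocyte markers moved with Bmpr1b between stem cells and progenitors, and oligodendrocyte precursor markers moved against it, with the sums given above. Their part in the result was not tested.

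In astrocytes Bmpr1b spread more widely, at 17.9, 173, 94.0 and 83.5 CPM in libraries a to d. Astrocyte a lay below every other library of the 12, and Astrocyte b lay among the stem cells. Astrocytes minus stem cells came to -0.78 (SE 0.60, edgeR adjusted p = 0.77) and astrocytes minus progenitors to 0.48 (SE 0.66, edgeR adjusted p = 0.79), both on the log2 scale. The coefficient of variation over libraries was 0.119 in stem cells, and 92.3% of the 2019 genes within 2-fold of that mean level varied at least as much.

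RefSeq lists 3 start windows for Bmpr1b in GRCm38.p6, and the one lying furthest upstream, chr3:141982215-141982514 on the minus strand, is shown because Bmpr1b had the smallest adjusted p of all members. It runs from 250 bases before the annotated start to 50 after it, and 48.3% of its bases are G or C. Capitals mark matches to CAGAC (searched on both strands; the letters of a SMAD-binding element) and to TATAA (forward strand only; the core of a TATA box). The matches begin 128 and 242 bases before the start.
Bmpr1b: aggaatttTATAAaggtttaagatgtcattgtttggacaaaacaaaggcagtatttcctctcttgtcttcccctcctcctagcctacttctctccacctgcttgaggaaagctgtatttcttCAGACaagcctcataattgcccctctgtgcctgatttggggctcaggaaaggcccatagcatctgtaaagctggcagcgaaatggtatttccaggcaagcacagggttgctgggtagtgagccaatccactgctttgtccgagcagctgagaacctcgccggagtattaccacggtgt

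Bmpr2 (ENSMUSG00000067336.6, plus strand of chromosome 1, 59763400 to 59879014), the type II receptor, had its highest levels in astrocytes. The astrocytes a to d held 271, 68.5, 171 and 36.6 CPM. Progenitors held 37.6, 23.3, 10.8 and 31.5 CPM, and stem cells 1 to 4 held 39.1, 63.3, 40.2 and 18.2 CPM. The astrocytes a, b and c lay above all 8 libraries of the other cell types, b by a small margin, and d lay among them.

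Between astrocytes and progenitors the Bmpr2 difference was 2.39 on the log2 scale (SE 0.73, edgeR adjusted p = 0.079), a 5.26-fold higher fitted level in astrocytes that missed the threshold. DESeq2 called it (adjusted p = 0.0088), as did the fit of all 12 libraries (adjusted p = 0.042) and the fit without Astrocyte d (2.71 on the log2 scale, adjusted p = 0.034). Between astrocytes and stem cells the difference was 1.76 (SE 0.72, edgeR adjusted p = 0.44). Neuron markers summed to 5373, 1930, 1863 and 657 CPM in the astrocytes a to d, against 306 to 440 CPM in progenitors and 262 to 480 CPM in stem cells. They were thus highest in the library with the most Bmpr2 and lowest in the one with the least. Astrocyte b, however, had slightly more of them than c and less Bmpr2. Camk2a alone averaged 1871 CPM in the astrocytes, and the part of these markers in the result was not tested.

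Bmpr1a (ENSMUSG00000021796.14, minus strand of chromosome 14, 34410734 to 34503341), the other type I receptor among the members, was low throughout. Its level was 3.62 to 20.2 CPM in astrocytes, 8.69 to 20.8 CPM in progenitors and 8.08 to 33.5 CPM in stem cells, so that all cell types overlapped. Progenitors and stem cells were 0.02 apart on the log2 scale with an SE of 0.62 (edgeR adjusted p = 0.99), an error too wide to exclude a 2-fold difference in either direction. A predicted gene on the opposite strand, Gm17110, covers 4.6% of its exonic length, and the reads were counted without strand.

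**Figure D1:**
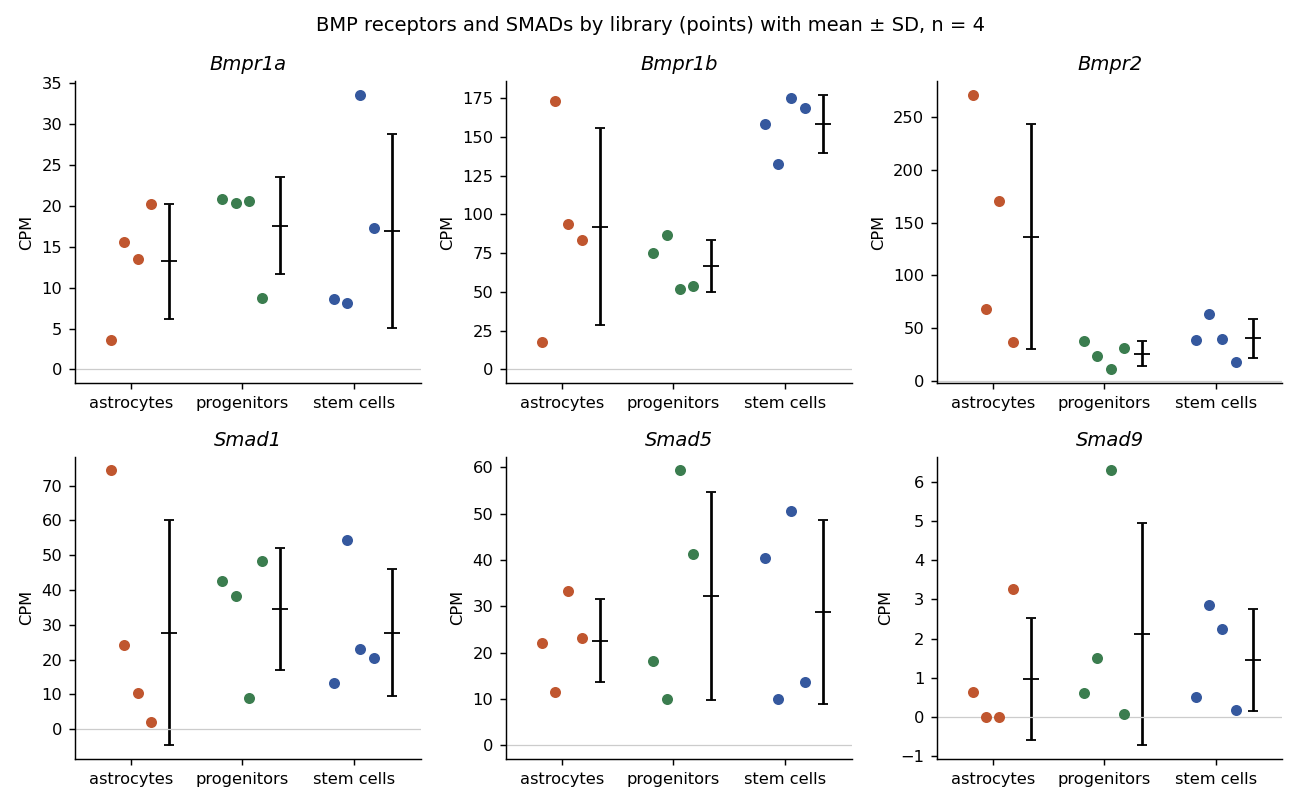
Levels of the 3 BMP receptor genes and the 3 receptor-activated SMAD genes, in CPM, with one point per library and the mean ± SD of the 4 libraries of each cell type. For Bmpr1b the stem cell points (132 to 175 CPM) all lie above the progenitor points (51.7 to 86.7 CPM), and for Bmpr2 the astrocyte points spread from 36.6 to 271 CPM.

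When levels were divided by exon length (CPM per kb of exon) so that genes could be compared, Bmpr1b made up 84.6% ± 4.38 (SD, n = 4) of the summed level of the 3 receptors in stem cells. It made up 72.5% ± 3.36 (SD, n = 4) in progenitors and 57.2% ± 29.2 (SD, n = 4) in astrocytes. The astrocyte share ran from 16.1% to 82.3%, and in Astrocyte a Bmpr2 held 80.9% instead. Bmpr1a had its largest mean share, 18.03% ± 5.99 (SD, n = 4), in progenitors.

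The SMADs that carry the signal of these receptors did not differ between cell types beyond the spread of their libraries. Smad1 (ENSMUSG00000031681.16, minus strand of chromosome 8, 79338395 to 79399518) measured 74.3, 24.3, 10.5 and 2.04 CPM in the astrocytes a to d. It measured 42.7, 38.2, 9.05 and 48.4 CPM in progenitors and 13.2, 54.3, 23.0 and 20.4 CPM in stem cells. Each cell type thus held both high and low libraries, and the 3 log2 differences lay between -0.34 and 0.28 with SEs of 0.60 to 1.11.

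Smad5 (ENSMUSG00000021540.16, plus strand of chromosome 13, 56703010 to 56742377) ranged from 11.5 to 33.4 CPM in astrocytes, from 10.0 to 59.3 CPM in progenitors and from 10.0 to 50.5 CPM in stem cells. Its log2 differences lay between -0.51 and 0.13, and the smallest edgeR adjusted p was 0.82. Which of Smad1 and Smad5 had the higher level per kb of exon changed from library to library. Smad1 led in 2 of the 4 astrocyte, 3 of the 4 progenitor and 2 of the 4 stem cell libraries, by the union of exons and by the longest transcript alike. The group means depended on that length, since Smad1 and Smad5 had 4.43 and 3.87 CPM per kb of exon in stem cells, but 7.35 and 4.36 CPM per kb of the longest transcript.

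Smad9 (ENSMUSG00000027796.2, plus strand of chromosome 3, 54755582 to 54801257), which encodes SMAD8, was the lowest member in every cell type. It reached 10 counts in 5 of the 12 libraries, with counts of 3, 0, 0 and 16 in astrocytes, 9, 18, 68 and 1 in progenitors, and 5, 22, 18 and 1 in stem cells. Only the comparison of progenitors with stem cells held enough counts for a test, and it gave a log2 fold change of 0.51 (SE 1.24, edgeR adjusted p = 0.88). A difference in Smad9 was not detectable at these counts.

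Turning to the target genes, Id4 (ENSMUSG00000021379.1, plus strand of chromosome 13, 48261228 to 48266026) separated the progenitors from both other cell types. Stem cells 1 to 4 held 45.1, 42.1, 54.4 and 65.0 CPM, and the astrocytes a to d held 67.1, 38.2, 72.1 and 34.3 CPM. The progenitors held 13.7, 17.1, 27.6 and 11.5 CPM. Every progenitor library lay below every library of the other cell types, and stem cells and astrocytes overlapped.

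With their SD over 4 libraries, the Id4 means were 17.5 ± 7.13 CPM for the progenitors, 51.7 ± 10.3 CPM for the stem cells and 52.9 ± 19.4 CPM for the astrocytes. Progenitors minus stem cells came to -1.60 on the log2 scale (SE 0.40, edgeR adjusted p = 0.033). That call was lost without the filter on low counts (adjusted p = 0.062), in the fit of all 12 libraries (adjusted p = 0.24) and in 6 of the 8 refits that left out a library, whose adjusted p ran from 0.032 to 0.095. Without Progenitor c and without Stem 2 it was kept. An overlapping gene on the opposite strand, A330033J07Rik, covers 2.1% of the exonic length of Id4.

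The difference of Id4 between astrocytes and progenitors was as large, 1.60 on the log2 scale, with a wider error (SE 0.71, edgeR adjusted p = 0.26). DESeq2 called it (adjusted p = 0.014). Astrocytes and stem cells were 0.03 apart with an SE of 0.64 (edgeR adjusted p = 0.99). The summed astrocyte markers were also lower in every progenitor library than in any other, and their part in the result was not tested.

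Id2 (ENSMUSG00000020644.8, minus strand of chromosome 12, 25093799 to 25097140) was the most abundant member per kb of exon. Stem cells 1 to 4 held 915, 1106, 1025 and 504 CPM. The progenitors held 534, 615, 525 and 386 CPM, and the astrocytes 381, 1206, 469 and 554 CPM. Stem cells 1 to 3 lay above all progenitors, while Stem 4 fell among them.

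Progenitors minus stem cells gave -0.82 for Id2 on the log2 scale (SE 0.24, edgeR adjusted p = 0.070), just outside the threshold. Without Stem 4 the difference was -1.01 (edgeR adjusted p = 0.014), and DESeq2 on all 8 libraries gave an adjusted p of 0.018. The other comparisons of Id2 were 0.35 (astrocytes minus progenitors, SE 0.37) and -0.45 (astrocytes minus stem cells, SE 0.39), with edgeR adjusted p of 0.71 and 0.81.

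Id3 (ENSMUSG00000007872.3, plus strand of chromosome 4, 136143497 to 136145755) was split within the astrocytes. Libraries a and c held 9 and 11 counts (1.92 and 2.17 CPM), and libraries b and d held 1303 and 1493 counts (238 and 305 CPM). No stem cell or progenitor library was that low, with 557, 307, 508 and 165 CPM in stem cells 1 to 4 and 339, 239, 333 and 186 CPM in progenitors. Libraries b and d thus lay inside the range of the other cell types and a and c far below it. Summed neurogenic progenitor markers split the astrocytes the opposite way. They came to 241 and 163 CPM in a and c, and to 4.38 and 2.04 CPM in b and d. The sums in a and c were nearly all Calb2 (at most 163 CPM in an astrocyte library) and Neurod1 (at most 117 CPM). Every other marker of that list stayed at or below 2.01 CPM in the astrocytes. The part of these markers in the split was not tested.

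With that spread, the Id3 differences of astrocytes from progenitors (-1.003, SE 1.24, edgeR adjusted p = 0.76) and from stem cells (-1.50, SE 1.22, edgeR adjusted p = 0.79) did not pass, nor did progenitors minus stem cells (-0.52, SE 0.36, edgeR adjusted p = 0.48). The coefficient of variation in astrocytes was 1.15, and 10.9% of the 2898 genes within 2-fold of its mean level varied at least as much.

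Id1 (ENSMUSG00000042745.9, plus strand of chromosome 2, 152736251 to 152737410) was steady in progenitors and erratic elsewhere. The progenitors held 23.1, 34.7, 25.2 and 37.2 CPM. The stem cells 1 to 4 held 21.3, 12.6, 4.88 and 0 CPM, and Astrocyte a held 47.7 CPM while b and c held no count and d held 1. All progenitors lay above all stem cells, and the astrocytes held the highest value of all libraries beside 3 values at or near 0.

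No comparison of Id1 passed, since progenitors minus stem cells came to 1.60 (SE 1.04, edgeR adjusted p = 0.45), astrocytes minus progenitors to -1.37 (SE 1.85, edgeR adjusted p = 0.78) and astrocytes minus stem cells to 0.29 (SE 2.14, edgeR adjusted p = 0.98). A single library decided the value against progenitors. Without Astrocyte a, where the other 3 astrocyte libraries held 0, 0 and 1 counts, Id1 was called lower in astrocytes than in progenitors (edgeR adjusted p = 0.011). In that refit Id1 passed the count filter through the progenitor libraries, so only a higher level there could be called. The library left out was the one with the highest astrocyte value, so the call is not read as a result. Astrocyte a was also the library with the most neuron and oligodendrocyte markers, whose part in this was not tested.

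**Figure D2:**
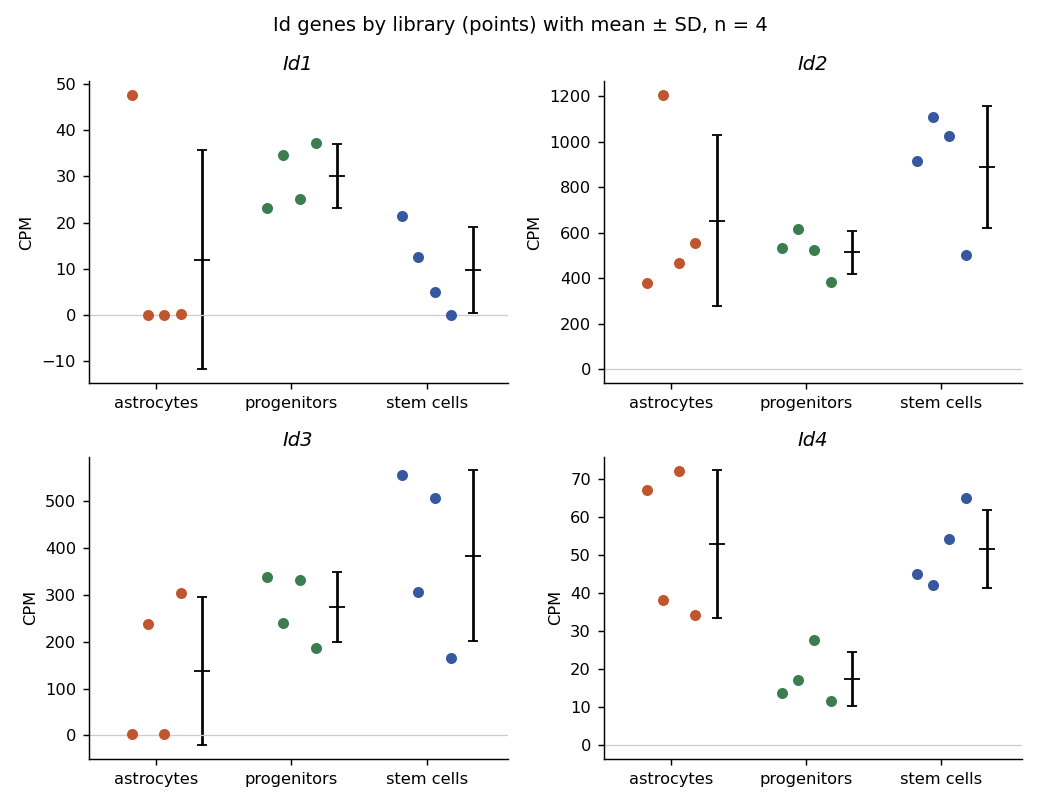
Levels of Id1, Id2, Id3 and Id4 in CPM, one point per library, with the mean ± SD of the 4 libraries of each cell type. Id4 sits at 11.5 to 27.6 CPM in progenitors, below all other libraries, whereas the astrocyte points of Id3 split into 1.92 and 2.17 CPM against 238 and 305 CPM.

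The start windows of 3 Id genes are shown because these genes behaved differently in the same libraries (Id4 lowest in progenitors, Id3 split within astrocytes, Id2 high throughout). Sequences are from RefSeq for GRCm38.p6, each from 250 bases before the annotated start to 50 after it. The windows are chr12:25096043-25096342 on the minus strand for Id2, chr4:136143572-136143871 on the plus strand for Id3 and chr13:48260866-48261165 on the plus strand for Id4. Capitals mark GGCGCC (both strands, a GC-rich SMAD-binding motif of BMP targets), CAGAC or its reverse complement GTCTG, and TATAA (forward strand).
Id2: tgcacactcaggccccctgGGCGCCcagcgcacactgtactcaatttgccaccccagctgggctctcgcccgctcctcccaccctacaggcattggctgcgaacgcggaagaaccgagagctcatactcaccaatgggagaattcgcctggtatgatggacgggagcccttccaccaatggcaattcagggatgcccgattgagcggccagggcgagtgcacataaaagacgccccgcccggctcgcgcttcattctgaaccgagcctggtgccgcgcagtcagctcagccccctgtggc
Id3: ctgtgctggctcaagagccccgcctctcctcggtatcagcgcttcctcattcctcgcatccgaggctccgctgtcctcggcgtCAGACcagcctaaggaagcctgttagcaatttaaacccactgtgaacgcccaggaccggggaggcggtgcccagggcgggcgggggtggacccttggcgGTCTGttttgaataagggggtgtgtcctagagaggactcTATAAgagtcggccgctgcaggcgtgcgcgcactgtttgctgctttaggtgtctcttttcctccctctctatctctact
Id4: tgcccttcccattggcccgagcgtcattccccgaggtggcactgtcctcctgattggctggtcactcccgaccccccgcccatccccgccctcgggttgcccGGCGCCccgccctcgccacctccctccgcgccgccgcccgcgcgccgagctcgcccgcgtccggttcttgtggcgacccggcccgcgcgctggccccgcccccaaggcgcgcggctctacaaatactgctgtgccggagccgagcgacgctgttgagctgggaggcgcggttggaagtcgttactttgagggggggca
Id2 and Id4 each hold 1 GGCGCC, which begins 231 and 148 bases before the start, and neither CAGAC nor TATAA. Id3 holds no GGCGCC but a CAGAC 167 bases and a GTCTG 68 bases before the start, and a TATAA 29 bases before it. Of all 32851 windows in the same table, 11.9% hold GGCGCC, 49.6% hold CAGAC on either strand and 17.5% hold TATAA. These matches describe letters only, and none of the samples measured binding.

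Per kb of exon, Id2 held 74.1% ± 14.4 (SD, n = 4) of the summed Id level in astrocytes, 53.5% ± 4.54 in progenitors and 61.5% ± 7.85 in stem cells. Id3 came next with 38.5% ± 5.995 in progenitors and 34.6% ± 8.06 in stem cells, but from 0.495% to 41.9% in astrocytes. Id4 was the smallest share in progenitors, 1.14% ± 0.367, and Id1 the smallest in stem cells, 1.21% ± 1.14. The summed Id level was 601 ± 193 CPM per kb in stem cells, 395 ± 65.2 in progenitors and 368 ± 201 in astrocytes, with overlapping ranges.

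**Figure D3:**
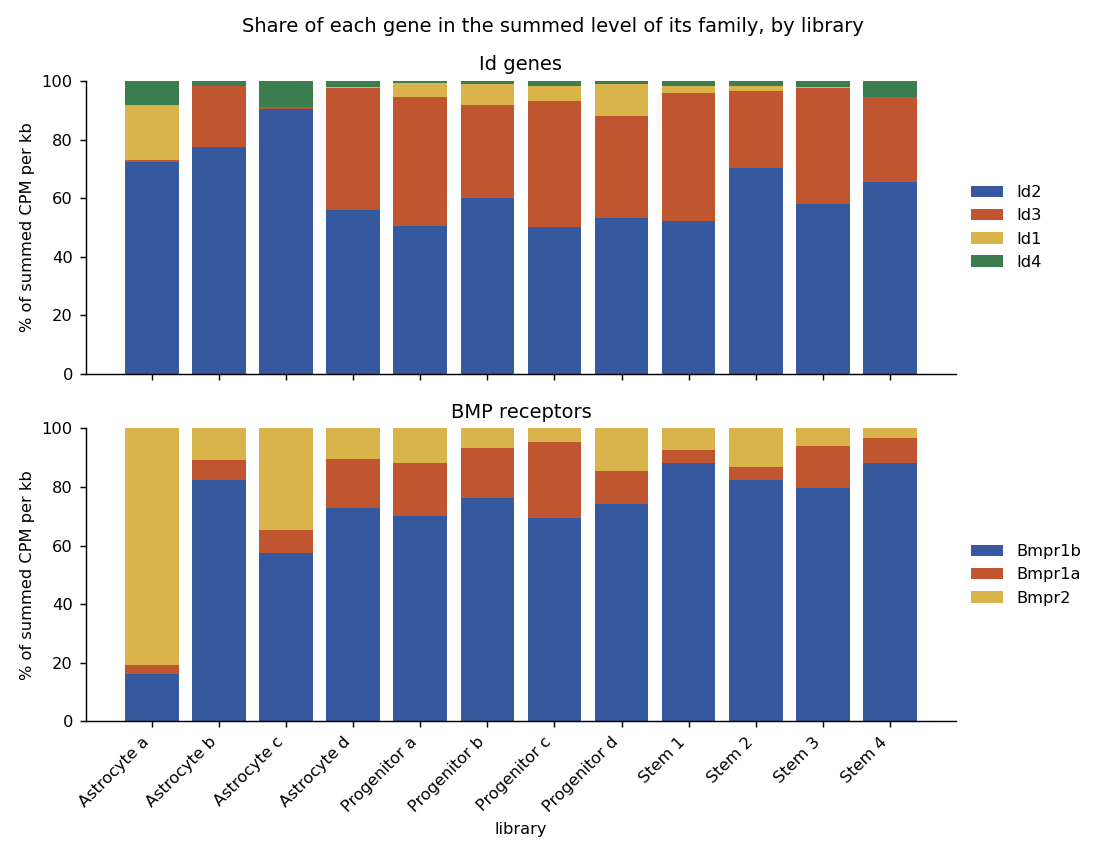
Share of each gene in the summed level (CPM per kb of exon) of its family, by library, for the Id genes and the BMP receptors. Id2 is the largest Id segment in all 12 libraries, and Bmpr1b the largest receptor segment in every library but Astrocyte a, where Bmpr2 takes 80.9%.

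Across all members, the mean levels per kb in stem cells fell in the order Id2 (364), Id3 (215), Bmpr1b (26.6), Id4 (13.4), Id1 (8.38), Smad1 (4.43), Smad5 (3.87), Bmpr1a (2.66), Bmpr2 (2.24) and Smad9 (0.271). The steps from Id3 to Bmpr1b, from Bmpr1b to Id4 and from Bmpr2 to Smad9 were clear of overlap between libraries, and all other neighbors overlapped. In progenitors Id1 (25.9 CPM per kb) ranked next after Id2 (211) and Id3 (153), ahead of Bmpr1b (11.2), and Id4 (4.55) came after Smad1 (5.52). There the steps from Id3 to Id1, from Id1 to Bmpr1b and from Bmpr1b to Smad1 were clear. In astrocytes, where Id2 (268) and Id3 (76.4) also led, every pair of neighbors in the order overlapped.

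Without Astrocyte a, the library rich in neuron and oligodendrocyte markers, Bmpr2 was 1.86 higher in astrocytes than in progenitors on the log2 scale (edgeR adjusted p = 0.12), Bmpr1b 0.83 higher (edgeR adjusted p = 0.27) and Id4 1.49 higher (edgeR adjusted p = 0.19). Smad1 moved most after Id1, to -1.48 (edgeR adjusted p = 0.41), and no member other than Id1 was called in a comparison with astrocytes.

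Counted together, 2 of the 10 members tested between progenitors and stem cells were called, both higher in stem cells, against 8.6% of all 15427 genes called in either direction and 3.66% called higher in stem cells. Libraries of the compared types did not overlap for Id4 and Bmpr1b (higher in stem cells, as for 7.5% of all genes) and for Id1 (higher in progenitors, as for 11.8%). Of the 9 members tested between astrocytes and progenitors none was called by edgeR, against 8.63% of 14806 genes. An unadjusted p under 0.05 was reached by 2 of the 9 members and by 2792 of the 14806 genes. DESeq2 called 2 members, and it also called more of all genes than edgeR did. Id4 alone did not overlap there, higher in astrocytes, as for 5.84% of all genes.

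Between astrocytes and stem cells edgeR called 0 of 9 members and 6 of 12831 genes (0.0468%). An unadjusted p under 0.05 was reached by 1 member and by 1226 of the 12831 genes, and DESeq2 called 0 members. All 9 members overlapped there, where 9.97% of all genes did not. The median log2 difference of the members tested was -0.34 for astrocytes minus progenitors, where it was 0.03 over all genes tested, -0.25 for progenitors minus stem cells, where it was 0.04, and -0.35 for astrocytes minus stem cells, where it was 0.14. A two-sided exact permutation test on the mean log2(CPM + 1) gave p = 0.029, the smallest that 4 against 4 libraries allow, for each member without overlap, and these 30 tests were not adjusted.

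**Figure D4:**
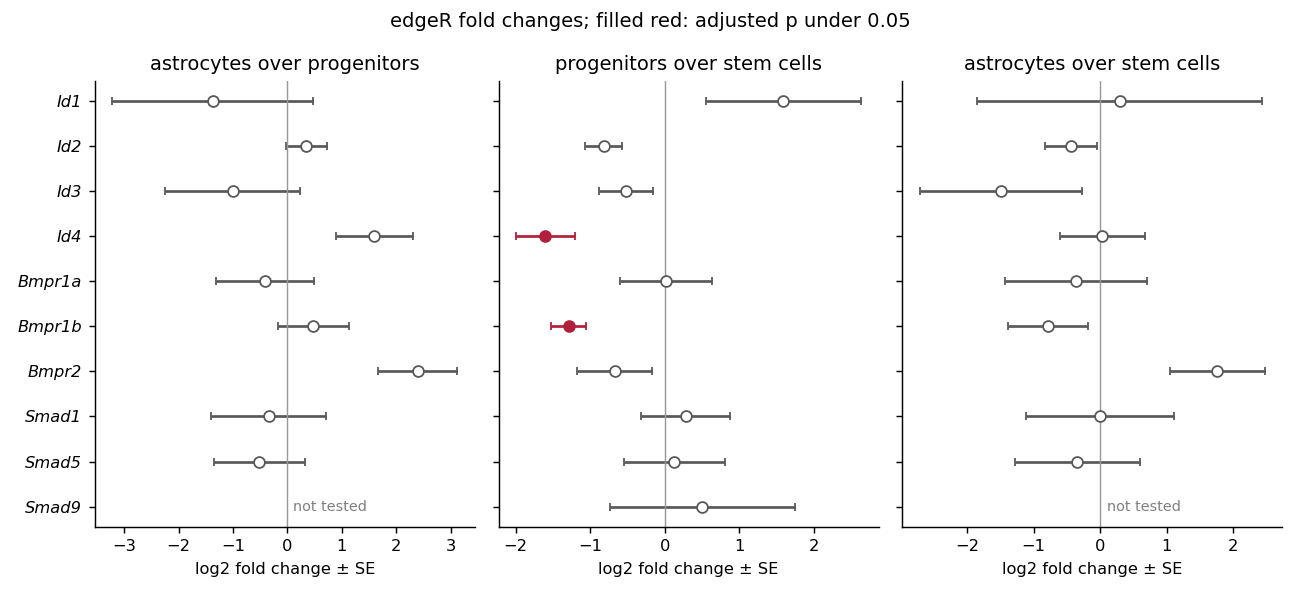
Fitted log2 fold changes of each member with SE bars in the 3 comparisons, as first cell type minus second, from edgeR. Id4 (-1.60) and Bmpr1b (-1.29) in progenitors minus stem cells are the points past an adjusted p of 0.05, and the widest bars belong to Id1 in the comparisons with astrocytes.

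The ligands that these receptors bind were mostly at or near 0. Of the 13 BMP ligand genes, 5 had no count in any library, and 3 had enough counts for a test against progenitors. Bmp4, a main ligand of BMPR1A and BMPR1B, had 21, 61, 144 and 419 counts in progenitors and 0 counts in the 8 other libraries. Against the floor of 3 counts per library it was at least 23.4-fold higher in progenitors than in astrocytes and at least 34.3-fold higher than in stem cells (edgeR adjusted p = 0.027 and 0.017). Progenitor d carried much of that, and without it the bounds were 11.1-fold and 16.2-fold (edgeR adjusted p = 0.055 and 0.048).

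Leaving out a library kept the Bmp4 call in 5 of 8 refits against astrocytes and in 8 of 8 against stem cells. Bmp7, which signals through the same SMADs, measured 25.0, 8.69, 17.2 and 33.8 CPM in progenitors, a single count in all astrocytes together, and 16.7 CPM in Stem 1 but 0 in the other stem cell libraries. It was called between astrocytes and progenitors (edgeR adjusted p = 0.016) and not between progenitors and stem cells (edgeR adjusted p = 0.53). Both genes passed the count filter through the progenitor libraries, so no median of the ligands is given.

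Oligodendrocyte precursor markers summed to 2300, 2060, 3452 and 3126 CPM in the progenitors a to d, and were higher in the libraries c and d, which had the most Bmp4, than in a and b. Fibroblast and meningeal markers, counted without Pdgfra (which oligodendrocyte precursors share, a choice made after seeing the data), summed to 24.1, 3.84, 64.3 and 941 CPM in the same libraries, to 31.4 to 48.1 CPM in stem cells and to 32.1 to 269 CPM in astrocytes. All 7 of them reached 10 counts in Progenitor d, against 1 to 5 in the other progenitors. Mural markers summed to 928 to 2156 CPM in progenitors except for Progenitor b, at 41.0 CPM, and the part of any of these in the ligand levels was not tested.

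Msx2, a homeobox target of BMP signaling, was counted in progenitors alone. It had 33 to 97 counts in the progenitors and 0 in all stem cells and astrocytes. That put it at least 7.74-fold above the astrocytes and at least 11.4-fold above the stem cells (edgeR adjusted p = 0.016 and 0.010). Msx2 passed the count filter through the progenitor libraries, so only a higher level there could be called. Without Progenitor d, the progenitor library richest in fibroblast and meningeal markers, the bounds were 5.68-fold and 8.32-fold. The part of those markers was not tested. Msx2 was the only edgeR call among 8 target genes other than the Id genes. Of these, 5 were tested between astrocytes and progenitors, where 6.18% of all genes were called higher in progenitors, and 6 between progenitors and stem cells. An unadjusted p under 0.05 was reached by 3 of the 5 and 1 of the 6, and DESeq2 called 3 and 1. Over all genes that p was reached by 2792 of 14806 and 3278 of 15427, and DESeq2 called more of all genes than edgeR in both comparisons.

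None of the 6 antagonists tested (of 13 in the list) was called by edgeR in any comparison. An unadjusted p under 0.05 was reached by 1 between astrocytes and progenitors and by 2 in each of the other comparisons. Over all genes it was reached by 2792 of 14806 (astrocytes and progenitors), 3278 of 15427 (progenitors and stem cells) and 1226 of 12831 (astrocytes and stem cells). DESeq2 made 1 call among the antagonists in each comparison. Bambi, a decoy receptor without kinase activity, measured 63.9 ± 39.7 CPM (SD, n = 4) in stem cells, 40.2 ± 13.4 in progenitors and 1.42 ± 2.71 in astrocytes. Its astrocyte libraries lay below all others, with log2 differences of -4.79 (SE 1.69, edgeR adjusted p = 0.13) from progenitors and -5.46 (SE 1.73, edgeR adjusted p = 0.24) from stem cells. Astrocyte b held nearly all of the astrocyte counts of Bambi, and without it Bambi was called lower in astrocytes than in progenitors (edgeR adjusted p = 0.018) and not against stem cells (edgeR adjusted p = 0.14). In those refits Bambi passed the count filter through the progenitor or stem cell libraries alone, so only a lower level in astrocytes could be called. DESeq2 on all libraries called both differences (adjusted p = 0.0056 and 0.0053). Fstl1, a secreted BMP-binding protein and the highest of the list per kb, had 28.9 ± 19.99 CPM in astrocytes, 55.1 ± 14.9 in progenitors and 96.4 ± 29.9 in stem cells.

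Among the 13 other receptors and co-receptors of the family, 10 were tested between progenitors and stem cells and 1 was called, against 8.6% of all genes. Neo1, a co-receptor that binds RGM proteins and BMPs, was higher in stem cells (104 ± 18.8 CPM) than in progenitors (58.7 ± 5.19 CPM), with a log2 difference of -0.86 (SE 0.22, edgeR adjusted p = 0.040) that was kept in 1 of 8 refits without a library. Acvr1b, an activin receptor, was the single one of 10 called between astrocytes and progenitors, against 8.63% of all genes (-5.67, SE 1.51, edgeR adjusted p = 0.044, kept in 2 of 8 refits), from 0 to 0.988 CPM in astrocytes against 9.61 to 20.1 CPM in progenitors. With at most 5 counts in an astrocyte library, Acvr1b passed the count filter through the progenitor libraries. Only a higher level there could therefore be called. Acvr1, a further type I receptor for BMPs picked out here after its values were seen, measured 35.0 ± 14.02 CPM in stem cells, 8.66 ± 6.86 in progenitors and 2.90 ± 3.16 in astrocytes, and did not pass (progenitors minus stem cells -2.06, SE 0.69, edgeR adjusted p = 0.10). Rgma, a co-receptor, was the highest of the list per kb, at 87.7 ± 66.5 CPM in astrocytes, 33.4 ± 11.3 in progenitors and 49.1 ± 20.6 in stem cells.

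Of the 11 other SMADs and SMAD regulators, Zeb2, which encodes a SMAD-binding repressor, was higher in progenitors (185 ± 36.9 CPM) than in stem cells (66.2 ± 19.0 CPM), by 1.44 on the log2 scale (SE 0.26, edgeR adjusted p = 0.0082, kept in 8 of 8 refits). The other 9 tested there were not called by edgeR, which called 8.6% of all genes in that comparison. DESeq2 also called Ski, a SMAD corepressor, higher in stem cells (log2 difference -1.32, adjusted p = 0.036). Of the 9 tested in each of the comparisons with astrocytes, edgeR and DESeq2 called none. Over all genes edgeR called 8.63% against progenitors and 0.0468% against stem cells. An unadjusted p under 0.05 was reached by 1 of the 9 against progenitors and 0 against stem cells, and over all genes by 2792 of 14806 and 1226 of 12831. Tob1, an antiproliferative regulator of SMADs and the highest of the list per kb, had 25.98 ± 9.08 CPM in progenitors, 27.1 ± 18.8 in stem cells and 6.27 ± 6.07 in astrocytes. Smad4, the common partner of SMAD1, SMAD5 and SMAD9, measured 20.3 ± 3.49 CPM in progenitors, 18.6 ± 9.59 in stem cells and 40.3 ± 46.9 in astrocytes, one of which had 0 counts. Smad6 and Smad7, the inhibitory SMADs and themselves BMP targets, stayed below 3 CPM in all libraries except for Smad6 in Astrocyte c (27.5 CPM) and Stem 2 (5.08 CPM).

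**Figure D5:**
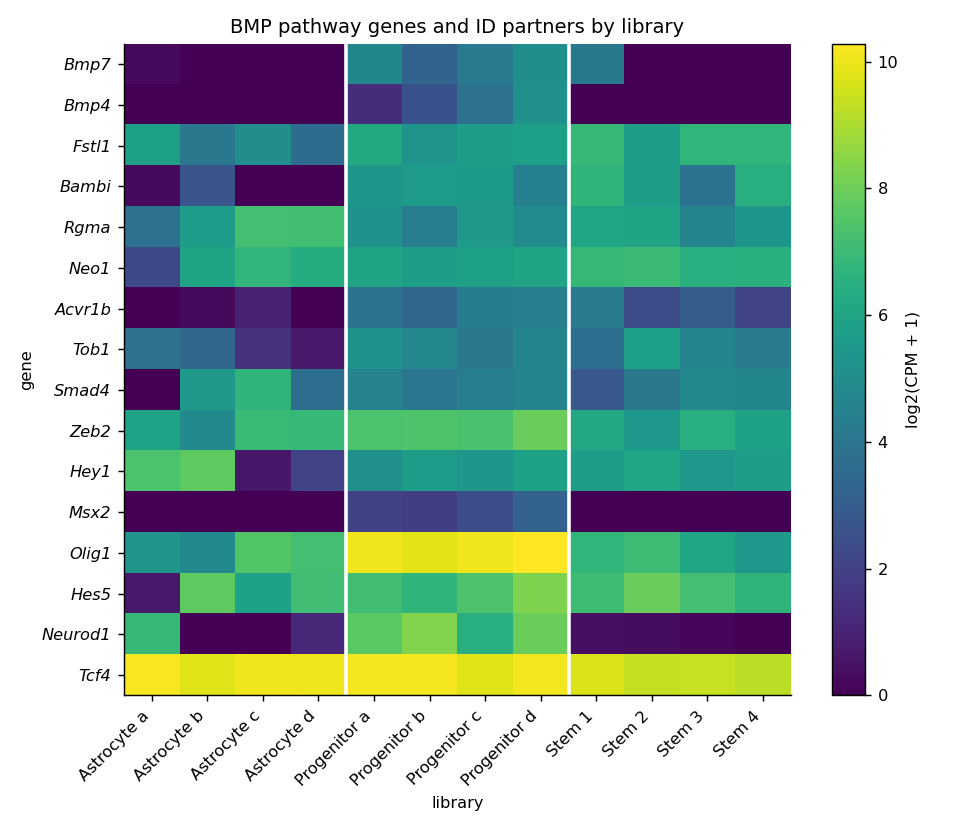
Levels of the BMP pathway genes and ID partners named in the text, as a color scale of log2(CPM + 1), with a row for each gene and a column for each library. Bmp4 and Msx2 are above 0 in progenitors alone, and Olig1 has a mean of 1076 CPM in progenitors against 99.0 CPM in astrocytes and 86.8 CPM in stem cells.

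The bHLH factors that ID proteins hold back were higher in progenitors wherever they were called. Of the 12 genes in that list, 11 were tested between progenitors and stem cells and 3 were called, Neurod1, Olig1 and Tcf4, against 4.95% of all genes called higher in progenitors. Neurod1 and the uncalled Neurod2 had at most 3 and 11 counts in a stem cell library, and passed the count filter through the progenitor libraries. The share called is therefore not read as a result about the list. Neurod1, a neurogenic bHLH factor, had 86.9 to 318 CPM in progenitors and at most 0.308 CPM in stem cells (edgeR adjusted p = 5.6e-05). Olig1, of the oligodendrocyte lineage, was 12.1-fold higher in progenitors than in stem cells (edgeR adjusted p = 0.00036) and 10.8-fold higher than in astrocytes (edgeR adjusted p = 0.012).

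Tcf4, an E protein, measured 1055 ± 112 CPM in progenitors and 689 ± 92.0 CPM in stem cells, a log2 difference of 0.58 (SE 0.15, edgeR adjusted p = 0.039) kept in 2 of 8 refits. Hey1, which is both a BMP and a Notch target, had 94.8 ± 109 CPM in astrocytes, 46.3 ± 10.4 in progenitors and 53.97 ± 9.06 in stem cells, and was not called. Between astrocytes and progenitors Olig1 was the only call of the 11 tested, where 8.63% of all genes were called and 6.18% were called higher in progenitors. Hes5, a Notch-driven bHLH repressor and one of the 2 highest genes of the list per kb, measured 156 ± 60.8 CPM in stem cells, 181 ± 90.2 in progenitors and 103 ± 92.8 in astrocytes. Olig1 belongs to the oligodendrocyte precursor markers and Neurod1 marks neurogenic cells, both marker lists were highest in progenitors, and their part in the result was not tested.

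The genes whose log2(CPM + 1) pattern over the 12 libraries was most like that of an Id gene were found among 16119 genes by Pearson correlation, as a description, since the libraries share cell type and depth. Id4 was most like Ahcyl1 (r = 0.93), Dclk1 (r = 0.92) and 1700010K23Rik (r = 0.92), and the first 2 were also the highest by Spearman correlation. Id3 was most like Malsu1 (r = 0.99), Mcfd2 (r = 0.98) and Nfu1 (r = 0.98), and Id1 like Traf2 (r = 0.95), Rhof (r = 0.94) and Hist3h2a (r = 0.93), but none of these 6 were in the 3 highest by Spearman correlation. Id2 was most like Gm23172 (r = 0.92), Gm43281 (r = 0.92) and Mir6385 (r = 0.91), whose mean levels were at most 6.13 CPM.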

How the data were processed

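Poly(A) RNA of 50 sorted cells per library was amplified with the SMARTer v4 kit and made into Nextera XT libraries. The authors trimmed the reads, aligned them to GRCm38.p4 with HISAT2 2.0.6 and counted reads per GENCODE gene with featureCounts without strand, and the deposited counts of 50600 genes in 12 libraries were used as given. Coverage files, which the authors' CLEAR filter needs, were not used here. The study speaks of a single mouse brain per biological replicate, but the labels do not tie libraries to animals.

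For each pair of cell types, genes that reached 10 counts in 4 or more of the 8 libraries were tested with edgeR 4.0.16 (TMM, quasi-likelihood, Benjamini-Hochberg threshold 0.05, in R 4.3.3), with DESeq2 1.42.0 as an alternative. On simulated data with this spread, edgeR missed most moderate changes between progenitors and stem cells. In the comparisons with astrocytes it missed all moderate changes and most large ones. A gene not called there may therefore still differ by a large amount. SEs are the log2 fold change over the square root of its F statistic. Exon lengths and symbols (50376 IDs matched) came from GENCODE M21 and start windows from RefSeq. The figures used matplotlib 3.10.9. The members and gene lists were chosen with earlier results of these data known. The text names every member, and from each list the called genes and the 2 highest per kb, except that a few more were picked for their roles.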

Additional observations from a re-analysis of the deposited data

Results flagged for a closer look

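In 30 groups of 4 libraries (10 members in 3 cell types), 2 had a library farther from the others than Dixon's 95% limit for groups of that size, where chance alone gives about 1 in 20 groups. Id1 in Astrocyte a, at 47.7 CPM, stood above the other astrocytes by a gap of 0.996 of the range. Bmpr1a in Progenitor d, at 8.69 CPM, stood below the other progenitors, which held 20.3 to 20.8 CPM, by 0.960 of the range. Progenitor d had 101 counts of Bmpr1a and the other progenitors 222 to 303.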

How the results depend on the processing

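No paired analysis was possible because the astrocyte and progenitor columns carry no replicate numbers. Between astrocytes and progenitors, 2 members (Id4 and Bmpr2) were called by DESeq2 and by DESeq2 with 10 counts required in every library, and 1 (Bmpr2) in the fit of all 12 libraries. Leaving out a library gave 0 to 1. Between progenitors and stem cells, 3 members (Id2 with Id4 and Bmpr1b) were called by DESeq2, 1 without the count filter and 0 with all 12 libraries, and leaving out a library gave 1 to 2. Between astrocytes and stem cells it was 0 throughout.

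Over all genes, calls between astrocytes and progenitors went from 1278 to 2431 with DESeq2, 529 without the filter and 287 with 10 counts in every library (719 to 1871 without a library). Between progenitors and stem cells they went from 1327 to 2394 with DESeq2 and 445 with all 12 libraries (830 to 1383 without a library). Between astrocytes and stem cells they went from 6 to 635 with DESeq2, 329 with DESeq2 and the stricter filter, 343 with all 12 libraries, 16 without the filter and 12 with the stricter filter (0 to 8 without a library). The causes were not tested.

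Signs turned for members with a log2 difference near 0 against its error. Id2 between astrocytes and progenitors came to -0.00068 under the stricter filter, and Id4 between astrocytes and stem cells to -0.14 there and -0.11 with DESeq2 added. Smad1 between astrocytes and stem cells was 0.12 with DESeq2 size factors and with DESeq2. Leaving out a library gave, for astrocytes minus progenitors, -0.019 to 0.83 for Bmpr1b, -0.14 to 0.54 for Id2 and -1.48 to 0.038 for Smad1. For progenitors minus stem cells it gave -0.22 to 0.59 for Bmpr1a, -0.32 to 0.55 for Smad5 and -0.99 to 1.05 for Smad9. For astrocytes minus stem cells it gave -0.66 to 0.20 for Bmpr1a, -6.84 to 1.01 for Id1, -0.18 to 0.17 for Id4, -1.20 to 0.54 for Smad1 and -0.64 to 0.061 for Smad5. Id4 and Bmpr1b kept their sign between progenitors and stem cells in every setting run. Dividing by the longest transcript in place of all exons raised Smad1 per kb in stem cells from 4.43 to 7.35. Depth kept Smad9 out of the comparisons with astrocytes.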
